A study of Mus musculus with 8 samples.

Results

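The genes followed here are transcription factors that mark or help to maintain naive pluripotency in the mouse. The list holds Nanog, Esrrb, Tbx3, Klf2, Klf5, Tfcp2l1, Zfp42, Nr0b1, Sall4 and Tfap2c. These genes were taken by symbol from the probes of a bead array that named 16593 genes. The list was chosen with earlier results of these data known. Of the 10 listed genes, 9 had a named probe and 8 were detected on at least 1 array. Tfcp2l1, a factor downstream of LIF signalling, had no probe under its symbol and was not analysed here. The probe of Nr0b1 was detected on none of the 8 arrays.

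Expression was measured in 8 mouse cell samples, each on 1 bead array. The somatic samples were mouse embryonic fibroblasts (MEFs), brain neural stem cells (NSCs) and induced neural stem cells (iNSCs), which had been converted directly from fibroblasts with Brn4, Sox2, Klf4 and Myc. Both iNdiPSC clones, iNdiPSC-1 and iNdiPSC-4, had been derived from the iNSCs with Oct4 and Klf4 carried by retroviruses. The control pluripotent samples were embryonic stem cells (ESCs), NSC 2F iPSCs made from NSCs with Oct4 and Klf4, and MEF 4F iPSCs made from MEFs with Oct4, Sox2, Klf4 and Myc. The iNSCs and both clones had the background strain C3H and the other 5 samples B6D2F1/J, so strain and derivation cannot be told apart between the clones and the control lines. The MEFs, NSCs and ESCs carried a Tet-On background. All iPSC lines were grown on feeder cells in 2i medium, and each group is a set of single lines, so that its spread is the spread between lines. The labels mark the iNSCs as pluripotent, whereas here they were placed among the somatic samples after their title and the study design.

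Naive pluripotency is the state of the inner cell mass before implantation and of mouse ESCs held with LIF or in 2i medium. In this state Oct4 and Sox2 occupy the control regions of many genes together, and a layer of further factors, among them Nanog, Esrrb, Tfcp2l1, Klf2, Klf4, Klf5 and Tbx3, ties the network to LIF, WNT and MAPK signalling. These factors activate one another, and in ESCs several can stand in for each other. Many of them fall when cells pass to the primed state of the epiblast after implantation. Some also act outside pluripotent cells, as Tbx3 in limb and mammary development, Klf2 in endothelium and Klf5 in epithelia.

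Upstream sequences of 2 members, Nanog and Zfp42, are shown. Of the members with a window, only these held an Oct-Sox core, which Oct4 and Sox2 are known to bind, or an octamer, a site of Oct4. RefSeq windows of 300 bases (250 before and 50 after a start, build GRCm38.p6) were available for 6 of the 10 members, in 8 windows, and for 32851 starts in all. The Nanog sequence is the + strand of chr6:122707239-122707488 and the Zfp42 sequence the - strand of chr8:43307010-43307259, both upstream of the transcript. Capitals mark a core of the Oct-Sox element in Nanog (GCATNACAA) and an octamer in Zfp42 (ATGCAAAT, here on the other strand).
Nanog: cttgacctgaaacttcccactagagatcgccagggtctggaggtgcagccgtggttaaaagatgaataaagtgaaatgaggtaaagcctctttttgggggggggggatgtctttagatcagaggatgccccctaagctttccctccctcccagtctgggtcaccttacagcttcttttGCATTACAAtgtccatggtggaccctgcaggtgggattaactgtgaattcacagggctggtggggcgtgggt
Zfp42: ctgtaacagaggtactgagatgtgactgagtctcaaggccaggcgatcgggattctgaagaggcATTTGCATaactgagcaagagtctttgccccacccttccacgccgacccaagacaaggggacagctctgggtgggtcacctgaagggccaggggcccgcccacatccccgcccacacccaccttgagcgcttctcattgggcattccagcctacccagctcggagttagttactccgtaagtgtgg
The Oct-Sox core began 72 bases before the upstream start of Nanog, fell into both of its windows, and was found in 0.731% of all windows. The octamer began 186 bases before the Zfp42 start and was found in 1.74% of all windows. Both strands were searched and no match overlapped another kind of motif. A KLF site (GGGNGTGG) lay in 4 of the 8 windows, those of Nanog, Zfp42 and Tfcp2l1, against 17.6% of all windows. The 2 windows of Nanog overlap and hold the same KLF matches, so these are counted in each. A TFAP2 site (GCCNNNGGC) also lay in 4 of the 8, against 16.6%. The estrogen-related receptor core (CAAGGTCA, 1.56% of all windows), the T-box core (AGGTGTGA, 1.28%), the STAT site (TTCCNGGAA, 1.15%) and the TFCP2L1 site (CCAG, any 6 bases and CCAG, 3.44%) had no match in these windows. These matches describe letters in the windows and not binding.

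Levels are given as log2 of the background-corrected and normalised intensity of a probe. A probe was called detected on an array where its detection p-value, set against the negative control beads of that array, was below 0.01. Between 43.1% and 47.2% of the probes were detected per array, and detected probes began at log2 levels of 4.97 to 5.27. Values below that limit have no order. Against the labels, 13 of 13 fibroblast markers were detected in MEFs, and of 8 neural stem cell markers on the array 6 were detected in NSCs and 7 in iNSCs, with Pax6 detected in neither. Where a gene had several probes, the probe with the highest mean was used and the others were set beside it. Differences between probes of different genes are not differences in transcript number.

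Nanog, Esrrb, Sall4 and Tfap2c were bright on all 5 pluripotent arrays and near or under the detection limit on the 3 somatic arrays. Nanog, a homeodomain factor at the centre of the network, had levels of 13.32 in iNdiPSC-1, 12.70 in iNdiPSC-4, 12.64 in NSC 2F iPSCs, 11.45 in MEF 4F iPSCs and 12.27 in ESCs. In MEFs, NSCs and iNSCs its levels of 4.40, 4.97 and 4.96 were not detected. Both clones stood above every control line for Nanog, iNdiPSC-4 by only 0.06 over NSC 2F iPSCs. Esrrb, an orphan nuclear receptor that can stand in for Nanog in ESCs, reached 12.14 and 12.04 in the clones and 12.48, 11.41 and 12.32 in the NSC 2F iPSCs, the MEF 4F iPSCs and the ESCs. It was not detected in MEFs (4.34) and iNSCs (4.57) but was just detected in NSCs (5.57). The clones lay between the control lines.

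Sall4, a zinc finger factor that works with Oct4 and represses the trophoblast programme, had the narrowest spread of the members on its brightest probe, which its other 2 probes did not share. The levels on this probe were 11.99 and 12.01 in the clones and 12.21, 11.91 and 12.12 in the NSC 2F iPSCs, the MEF 4F iPSCs and the ESCs, against 4.36 to 4.68 in the somatic samples, where it was not detected. The range over the 5 pluripotent arrays was 0.30 log2, and 8.8% of the 7078 genes detected on all 5 had a smaller one. Tfap2c, a factor of the AP-2 family that is also needed in trophoblast and germ cells, had levels of 11.59 and 11.25 in the clones and 11.84, 11.01 and 11.77 in the NSC 2F iPSCs, the MEF 4F iPSCs and the ESCs. The somatic levels of 4.37, 4.59 and 4.36 were not detected. For both genes the clones and the control lines overlapped.

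The Krueppel-like factors Klf2 and Klf5, which share targets with Klf4 in ESCs, were also detected outside the pluripotent samples. Klf5 had levels of 11.89 and 11.84 in the clones and 11.79, 11.35 and 11.52 in the NSC 2F iPSCs, the MEF 4F iPSCs and the ESCs, and of 6.76 in MEFs, 5.02 in NSCs (not detected) and 5.40 in iNSCs. Klf2 was detected on all 8 arrays, with 8.27 in MEFs, 5.71 in NSCs and 5.59 in iNSCs. In the clones it reached 11.39 and 11.32, and in the NSC 2F iPSCs, the MEF 4F iPSCs and the ESCs 11.16, 9.75 and 10.63. MEFs thus held the highest somatic level of both genes. For Klf2 the distance from MEFs to the lowest pluripotent sample was 1.49 log2.

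Tbx3, a T-box factor that acts downstream of LIF and PI3K signalling, differed in detection among the somatic samples. It was detected in MEFs (6.53) and highest in iNSCs (7.34), and was not detected in NSCs (4.20). The pluripotent levels were 10.61 and 10.28 in the clones and 10.10, 8.72 and 9.97 in the NSC 2F iPSCs, the MEF 4F iPSCs and the ESCs. Zfp42, also known as Rex1, a zinc finger gene used as a reporter of the naive state, had levels of 10.01 and 10.17 in the clones and of 9.59, 8.81 and 9.54 in the NSC 2F iPSCs, the MEF 4F iPSCs and the ESCs. Among somatic samples it was detected only in iNSCs (5.45), with 4.87 in MEFs and 5.11 in NSCs. Nr0b1, also known as Dax1, a nuclear receptor that binds Oct4 and Esrrb in ESCs, had levels between 4.29 and 4.45 on the 8 arrays, all under detection, and no difference is given for it.

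**Figure D1:**
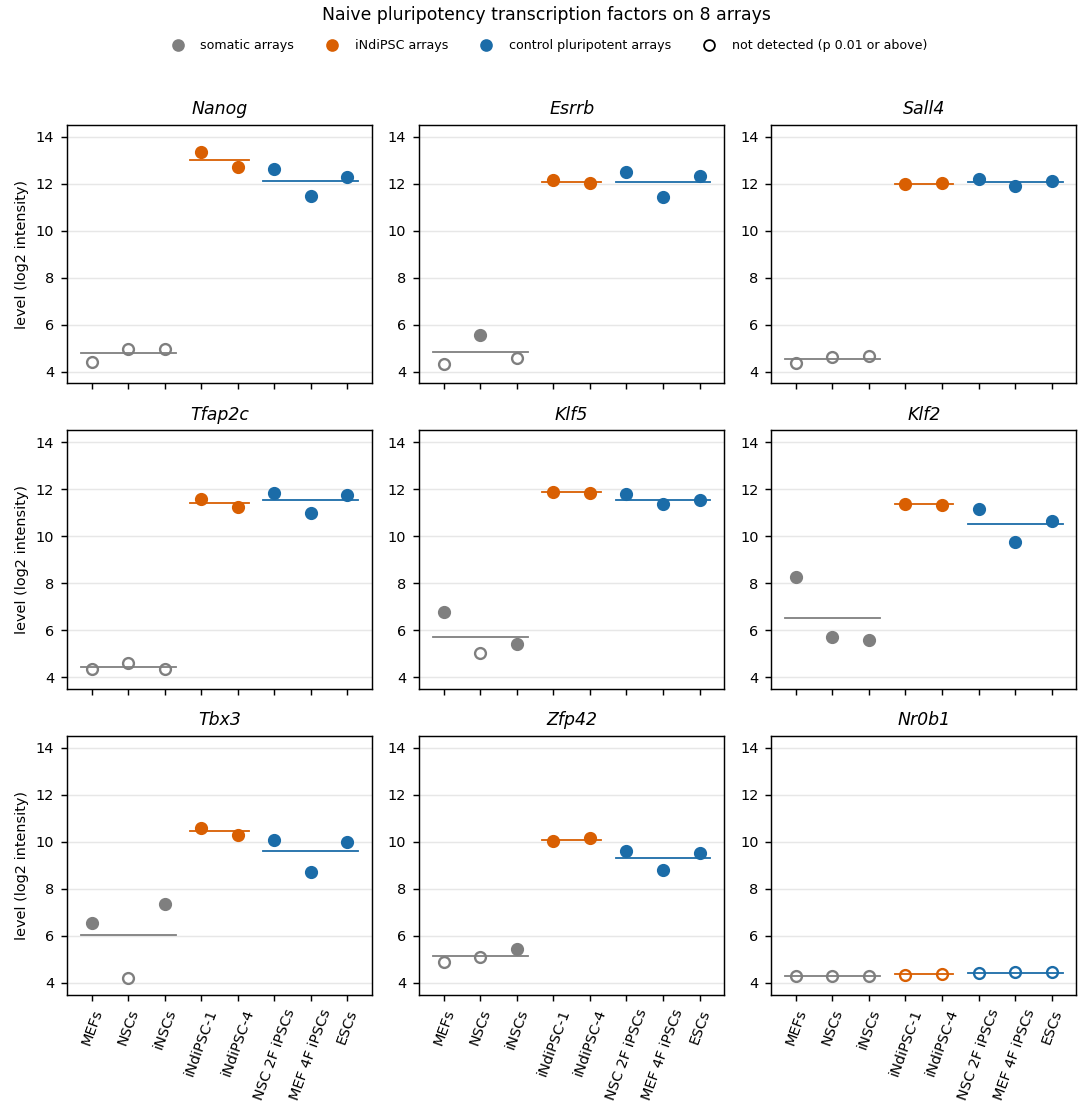
Log2 level (vertical axis) of the 9 measured members on each of the 8 arrays, with short lines at the group means; open circles were not detected. In 8 of the 9 panels the 5 pluripotent arrays lie above the 3 somatic arrays, and Nr0b1 is open on all 8.

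The comparison of the 3 control pluripotent lines with the 3 somatic samples asked how far the members separate the states without the iNdiPSCs. The 8 members that could be tested were higher in the control lines, with limma and Benjamini-Hochberg adjustment over the 9007 genes tested (adjusted p under 0.05 and at least 2-fold). Over all genes, 12.9% were called higher and 10.4% lower. Of the 8, 5 (Nanog, Esrrb, Zfp42, Sall4 and Tfap2c) were detected in at most 1 somatic sample and entered the test through the pluripotent lines, so that they had to differ, while Tbx3, Klf2 and Klf5 were detected in 2 or 3 somatic samples. The median log2 difference of the members was 6.46 (6.08 with undetected values set to the detection limit of the array), against 0.03 for all genes. In such bulk samples fewer cells of a type and less RNA per cell cannot be told apart.

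Nanog rose by a log2 difference of 7.34 ± 0.38 (SE; 95% interval 6.44 to 8.25; limma adjusted p = 2.04e-04), which is at least 125-fold when the somatic values are set to the detection limit. Sall4 rose at least 122-fold and Tfap2c at least 83.5-fold, likewise with no somatic array above the limit. Esrrb, with 1 of 3 somatic arrays above it, rose by 7.24 ± 0.45 log2, or 111-fold against the limit where it was not detected. The differences of Klf5 and Zfp42 were 5.83 and 4.17 log2, or 54.7-fold and 16.8-fold on the same basis. Klf2, which was measured on every array, had a difference of 3.99 ± 0.79 log2 or 15.9-fold (limma adjusted p = 0.0160), and Tbx3 one of 3.57 ± 0.84 (limma adjusted p = 0.0268). These 2 had the widest intervals of the 8, 2.10 to 5.89 and 1.54 to 5.61. The call of Tbx3 was lost without NSC 2F iPSCs (adjusted p = 0.103), MEF 4F iPSCs (0.0548) or ESCs (0.0979) in limma, and that of Klf2 without NSC 2F iPSCs (0.0698) or ESCs (0.0664). With the authors' processed values or without a detection filter Tbx3 also missed the threshold (limma adjusted p = 0.0760 and 0.0720).

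The iNdiPSC clones were then set against the same somatic samples, so that both comparisons share their controls. The 8 members were called higher, where 11.6% of the 8960 genes tested were called higher and 7.92% lower, and the same 5 entered the test only through the clones and had to differ. With somatic values set to the detection limit, Nanog was at least 232-fold, Sall4 at least 115-fold and Tfap2c at least 76.8-fold higher (limma adjusted p between 9.60e-04 and 0.00118), and Esrrb, detected in 1 somatic sample, was 111.9-fold higher on this basis (0.00192). Klf5 and Zfp42 were 67.7-fold and 28.7-fold higher on the same basis. Klf2 had one of 4.84 ± 0.90 (limma adjusted p = 0.0272) and Tbx3 one of 4.42 ± 0.97 (0.0394). Without either clone, limma called 0 of the 5 members that could still be tested and 0 genes in all, although all 5 had an unadjusted p under 0.05. The clones come from 1 population of iNSCs, and with their mean as 1 sample 3 members were called, Nanog, Sall4 and Tfap2c. Without NSCs or without iNSCs the call of Klf2 was lost (limma adjusted p = 0.0573 and 0.0659). Tbx3 missed the threshold with the authors' processed values (0.106), and both genes missed it without a detection filter (0.0851 for Tbx3 and 0.0597 for Klf2).

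**Figure D2:**
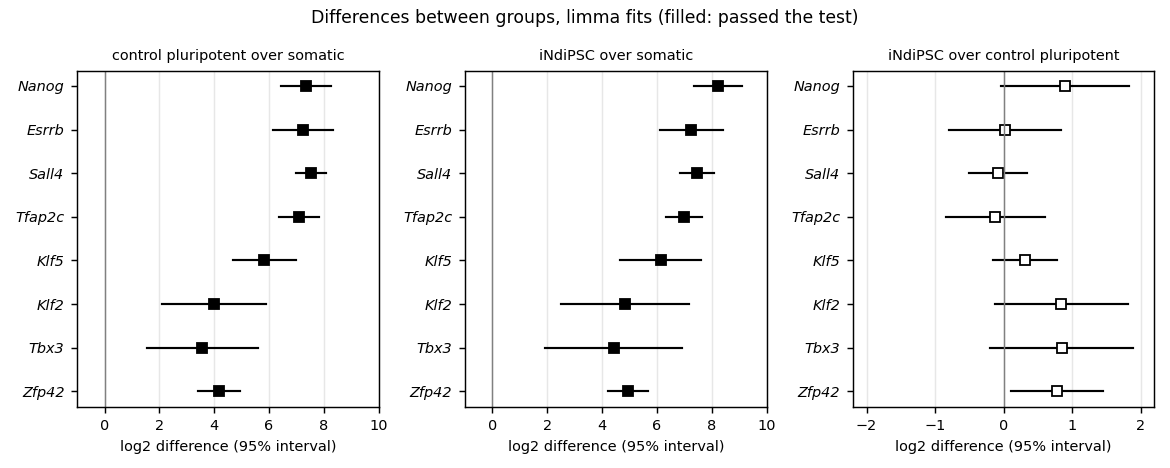
Log2 difference (horizontal axis, with the 95% interval of the limma fit) of 8 members in 3 comparisons; filled squares passed the test. The intervals of both comparisons with somatic samples lie above 0 for all 8, and in the comparison of clones with control lines only that of Zfp42 excludes 0, without passing the adjusted test.

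Setting the clones against the control pluripotent lines asked whether these factors differed between the groups. The clones also differed from all control lines in strain, so strain and derivation cannot be told apart in these differences. Passage number differed too between the clones and the control iPSC lines, and its part was not tested. No member passed the test. Limma called 0 of 8, and 1, Zfp42, was under the threshold before adjustment (limma adjusted p = 0.210). Over all genes 0.571% of 8400 were called higher and 0.595% lower, and 1602 had an unadjusted p under 0.05. The intervals leave room for differences of up to 1.89 log2 for a member. The log2 difference was 0.89 ± 0.39 for Nanog (95% interval -0.04 to 1.83), 0.85 ± 0.43 for Tbx3 (-0.20 to 1.89), 0.84 ± 0.40 for Klf2 (-0.13 to 1.81) and 0.78 ± 0.28 for Zfp42 (0.11 to 1.45). It was 0.31 ± 0.19 for Klf5 (-0.16 to 0.78). Esrrb had a difference of 0.02 ± 0.34, Sall4 of -0.08 ± 0.17 and Tfap2c of -0.12 ± 0.30, with intervals of -0.80 to 0.83, -0.50 to 0.34 and -0.85 to 0.60. Over the mean of its 3 probes Sall4 had a difference of -0.60. Without MEF 4F iPSCs the differences of Nanog, Tbx3 and Klf2 were 0.56, 0.41 and 0.46. A p that misses the threshold does not show that the clones and the control lines are alike.

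On the chosen probes both clones lay above all 3 control lines in 5 of the 8 members (Nanog, Tbx3, Klf2, Klf5 and Zfp42). Over the genes tested, 22.5% did so. For Klf5 the lead of iNdiPSC-4 over NSC 2F iPSCs was only 0.05 log2. On its second probe Tbx3 overlapped, with 9.25 in iNdiPSC-4 against 9.48 in NSC 2F iPSCs and 9.45 in ESCs. None of the 5 differences passed the test. The median difference of the members was 0.54 log2, against 0.02 for all genes, and it was 0.31 when the control lines were compared without MEF 4F iPSCs, with the same count of 5. The clones themselves differed by 0.62 log2 for Nanog, 0.34 for Tfap2c and 0.32 for Tbx3, and by at most 0.15 for the other 5. The median difference between the clones over 7078 genes was 0.17. Of 5 germ cell markers 3 were tested and 2 were called higher in the clones, Dazl (2.24 log2, limma adjusted p = 0.0186) and Asz1 (3.13, adjusted p = 0.0424), while Ddx4 was not (0.45, adjusted p = 0.429). The call of Dazl was lost without iNdiPSC-1, iNdiPSC-4 or NSC 2F iPSCs (limma adjusted p = 0.276, 0.0980 and 0.0640), and that of Asz1 without any one array other than that of ESCs (adjusted p = 0.0601 to 0.512). The germ cell list summed to 2840 and 1670 in the clones and 365 to 463 in the control lines, and its part in the levels of the members was not tested. Of 8 neural stem cell markers on the array 3 were tested, and Nes (0.23 log2) and Slc1a3 (-0.43) were not called. The other, Olig1, a factor of the oligodendrocyte lineage, was called lower in the clones, by at least 22.1-fold (limma adjusted p = 0.0186). It was not detected in either clone and had levels of 8.92, 9.01 and 10.67 in the NSC 2F iPSCs, the MEF 4F iPSCs and the ESCs. The call was lost without iNdiPSC-1 or iNdiPSC-4 (adjusted p = 0.347 and 0.225).

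Each iPSC line was also set against the cells it came from, as a difference between 2 arrays without a test. All 8 members were at least 2-fold higher in each of the 4 pairs, where 24.4% of genes were so in iNdiPSC-1 over iNSCs, 24.2% in iNdiPSC-4 over iNSCs, 24.5% in MEF 4F iPSCs over MEFs and 21.3% in NSC 2F iPSCs over NSCs. Nanog, Sall4 and Tfap2c were detected in no donor cells, Esrrb only in NSCs and Zfp42 only in iNSCs, and Tbx3 and Klf5 were not detected in NSCs. A member undetected in the donor cells entered through the iPSC line and had to be higher. Levels in the donor cells differed between pairs. Klf2 was 2.81-fold higher in MEF 4F iPSCs than in MEFs, against 43.7-fold in NSC 2F iPSCs over NSCs and 55.8-fold and 53.3-fold in the clones over iNSCs. Tbx3 was 4.58-fold higher than in MEFs, 9.61-fold and 7.67-fold higher than in iNSCs and at least 30.0-fold higher than in NSCs, where it was not detected. Sall4, undetected in all donor cells, was at least 112.3-fold to 129-fold higher in the 4 pairs. The difference between donor types was not tested, with 1 array for each line.

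MEF 4F iPSCs had the lowest level of all 5 pluripotent arrays for each of the 8 detected members (7 of 8 with the mean of all probes of a gene). Over all genes detected on the 5 arrays, MEF 4F iPSCs were lowest for 23.8%, and ESCs for 26.1%. MEF 4F iPSCs were also lowest for 9 of 20 other pluripotency genes, 4 of 6 primed epiblast genes and 2 of 11 paralogs of the members. This was noticed in the levels and was not tested. Against the mean of the other 4 arrays, the log2 difference was -1.52 for Tbx3, -1.37 for Klf2, -1.28 for Nanog, -1.02 for Zfp42, -0.83 for Esrrb, -0.60 for Tfap2c, -0.41 for Klf5 and -0.17 for Sall4. The median was -0.92 for the members, -0.41 for 20 other pluripotency genes and -0.04 for all 7078 genes. Against the next lowest array the difference was -1.25 for Tbx3, -0.88 for Klf2, -0.81 for Nanog, -0.72 for Zfp42 and -0.63 for Esrrb, and between -0.24 and -0.08 for Tfap2c, Klf5 and Sall4. In the order of levels, this gap was beyond the SD of the 3 control lines, which holds MEF 4F iPSCs, for 5 of the 8. It was within the SD for Tfap2c, Klf5 and Sall4. Among the other neighbours, only iNdiPSC-1 and iNdiPSC-4 for Nanog and NSC 2F iPSCs and ESCs for Klf5 were beyond this SD.

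Of the 5 pluripotent arrays, that of MEF 4F iPSCs had the highest sums of the epidermal and trophoblast marker lists, but not of all lists. Of 10 epidermal markers 5 were detected in MEF 4F iPSCs, and the summed intensity of the list was 3440, against 93.5 to 202 on the other 4 pluripotent arrays. Krt14, a keratin of the basal layer, had a level of 10.61 in MEF 4F iPSCs and was not detected in the other 4. The late genes Sprr1a, Lor and Sprr1b followed with 9.39, 8.90 and 8.77, and Krt16 with 8.37, while the defining markers Krt5 and Trp63 were not detected. Lor was also detected in NSCs (8.39), iNSCs (5.29), the clones (6.63 and 7.02) and NSC 2F iPSCs (7.14). Of 8 trophoblast markers 6 were detected, with a summed intensity of 4600 against 837 to 2440, led by the simple keratins Krt8 (11.70), Krt18 (9.41) and Krt7 (8.88), while Tpbpa and Hand1 were not detected. The endothelial list summed to 236 in MEF 4F iPSCs, against 111 to 210 on the other 4. The neural stem cell list summed to 1020, against 1890 in ESCs. For primitive endoderm and germ cells the sums were 387 and 394, against 400 and 2840 in iNdiPSC-1. The fibroblast list, which feeder cells would also carry, summed to 1070 in MEF 4F iPSCs, 1470 in NSC 2F iPSCs, 376 to 579 in the clones and 226 in ESCs, against 37500 in MEFs. Whether these markers came from other cells in the sample, and their part in the lower levels of the members, was not tested.

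**Figure D3:**
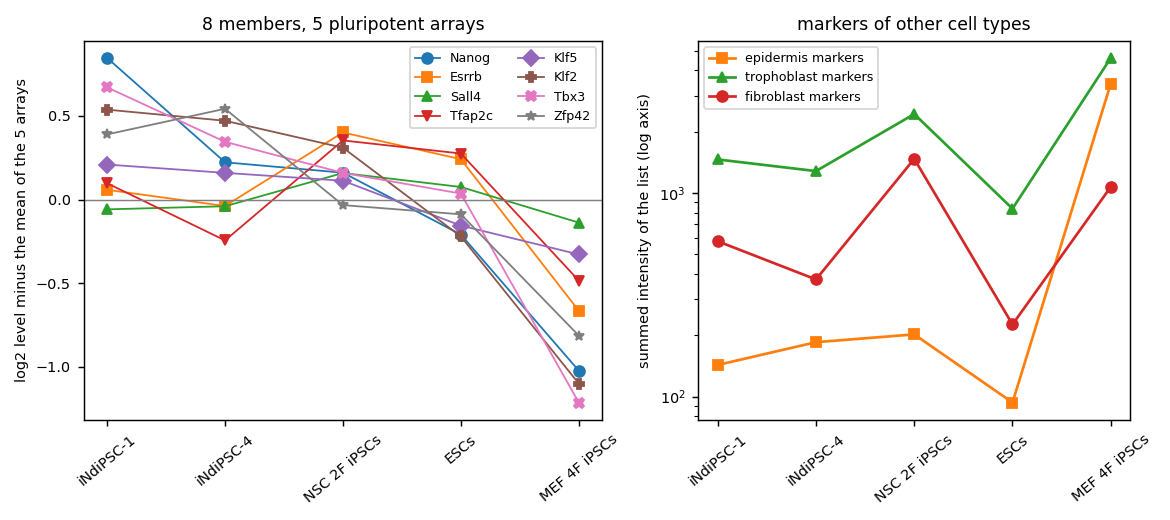
Left, the log2 level of 8 members on the 5 pluripotent arrays minus the mean of the 5; right, the summed intensity (log axis) of 3 marker lists on the same arrays, with lines that only join the points of a series. MEF 4F iPSCs are lowest for all 8 members and highest for the epidermal and trophoblast lists.

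The spread over the 5 pluripotent arrays divided the members. Tbx3 and Nanog had ranges of 1.88 and 1.87 log2, Klf2 of 1.64, Zfp42 of 1.36 and Esrrb of 1.06, where the median range over 7078 genes was 0.68 and the third quartile 0.98. Tfap2c (0.84) and Klf5 (0.54) lay between the quartiles, and the brightest probe of Sall4 (0.30) below the first quartile of 0.46. By mean level over the 5 arrays the 8 members were above 75.7% (Zfp42) to 97.6% (Nanog) of these genes.

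Further probes of 3 members could be compared. The 3 probes of Tfap2c and the 3 of Tbx3 gave the same calls as the chosen probe in all 3 comparisons when each of the 13220, 12241 or 13159 detected probes was fitted by itself. The 3 probes of Sall4 did not. The brightest, designed to transcript NM_201395, gave a log2 difference between clones and control lines of -0.08. The second, designed to NM_175303, had levels of 8.65 and 8.67 in the clones and of 10.21, 9.69 and 10.0035 in the NSC 2F iPSCs, the MEF 4F iPSCs and the ESCs, with no detection in somatic samples. Both clones lay below all control lines on this probe, by -1.31 ± 0.21 log2 (limma adjusted p = 0.0467 over 12241 probes). The call held without MEF 4F iPSCs (adjusted p = 0.0383) and was lost without any other one of the 5 arrays, at -1.19 to -1.32 log2 (adjusted p = 0.0701 to 0.517). The third, also designed to NM_175303, was dim, with 5.16 and 5.35 in the clones against 6.15, 5.40 and 5.43, and its difference of -0.41 did not pass (adjusted p = 0.460). The transcripts are those named by the accession of each probe, and which isoform a probe reads was not tested. This fit over single probes was chosen after the values had been seen. The clones are C3H and the control lines B6D2F1/J, so strain and derivation cannot be told apart on this probe.

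**Figure D4:**
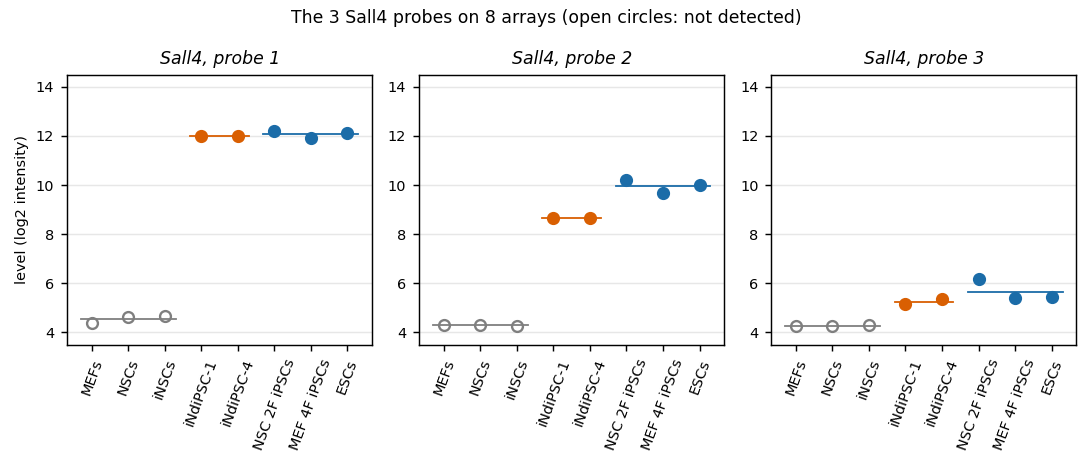
Log2 level of the 3 Sall4 probes on 8 arrays, with short lines at the group means and open circles where a probe was not detected. On probe 1 the clones and control lines overlap, and on probe 2 both clones (8.65 and 8.67) lie below the 3 control lines (9.69 to 10.21).

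Genes of the same families as the members showed few differences that passed the test. Of 26 paralogs 15 were tested between control lines and somatic samples, 0 were called higher and 1 lower by limma, and 3 had an unadjusted p under 0.05. The one called lower was Sall2, a relative of Sall4 expressed in neural tissue, with 10.41 in NSCs, 9.75 in iNSCs and 6.64 in MEFs against 5.09 to 5.87 in the control lines (log2 difference -3.42, adjusted p = 0.0446). The call held without MEFs (-4.57, limma adjusted p = 0.000326) and was lost without any other one of the 6 arrays (adjusted p = 0.0874 to 0.145). Sall3 was detected only in NSCs (8.18) and iNSCs (9.59). Sall1 had levels of 5.87 to 7.65 in somatic and 7.62 to 8.27 in pluripotent samples. None of the paralogs was called by limma in the other comparisons, where 13 and 15 were tested and 2 in each had an unadjusted p under 0.05.

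Among the KLF paralogs tested, Klf2 and Klf5 aside, Klf9 had the largest difference, with 11.81 to 12.55 in the pluripotent samples against 10.50 in MEFs, 10.16 in NSCs and 7.65 in iNSCs (control lines over somatic samples 2.54 log2, limma adjusted p = 0.0509). Klf16 also separated the states, with 7.97 to 8.32 in the pluripotent and 6.39 to 7.52 in the somatic samples, and did not pass (limma adjusted p = 0.0946). Klf3, Klf6, Klf7 and Klf13 overlapped between the control lines and the somatic samples. Klf4, itself a naive factor and a reprogramming factor of every iPSC line here, had 10.66 in MEFs, 6.18 in NSCs and 8.08 in iNSCs, and 11.27, 10.69, 9.98, 8.83 and 10.10 in iNdiPSC-1, iNdiPSC-4, the NSC 2F iPSCs, the MEF 4F iPSCs and the ESCs. MEFs therefore had more Klf4 signal than each control line. Whether the Klf4 probe reads the introduced gene was not tested. Tfap2a, a relative of Tfap2c in neural crest and skin, was highest in iNSCs (8.41) and reached 7.36 in MEF 4F iPSCs against 5.10 to 5.34 in the other pluripotent samples. Esrra, a relative of Esrrb, was detected on all 8 arrays between 7.67 and 8.99.

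**Figure D5:**
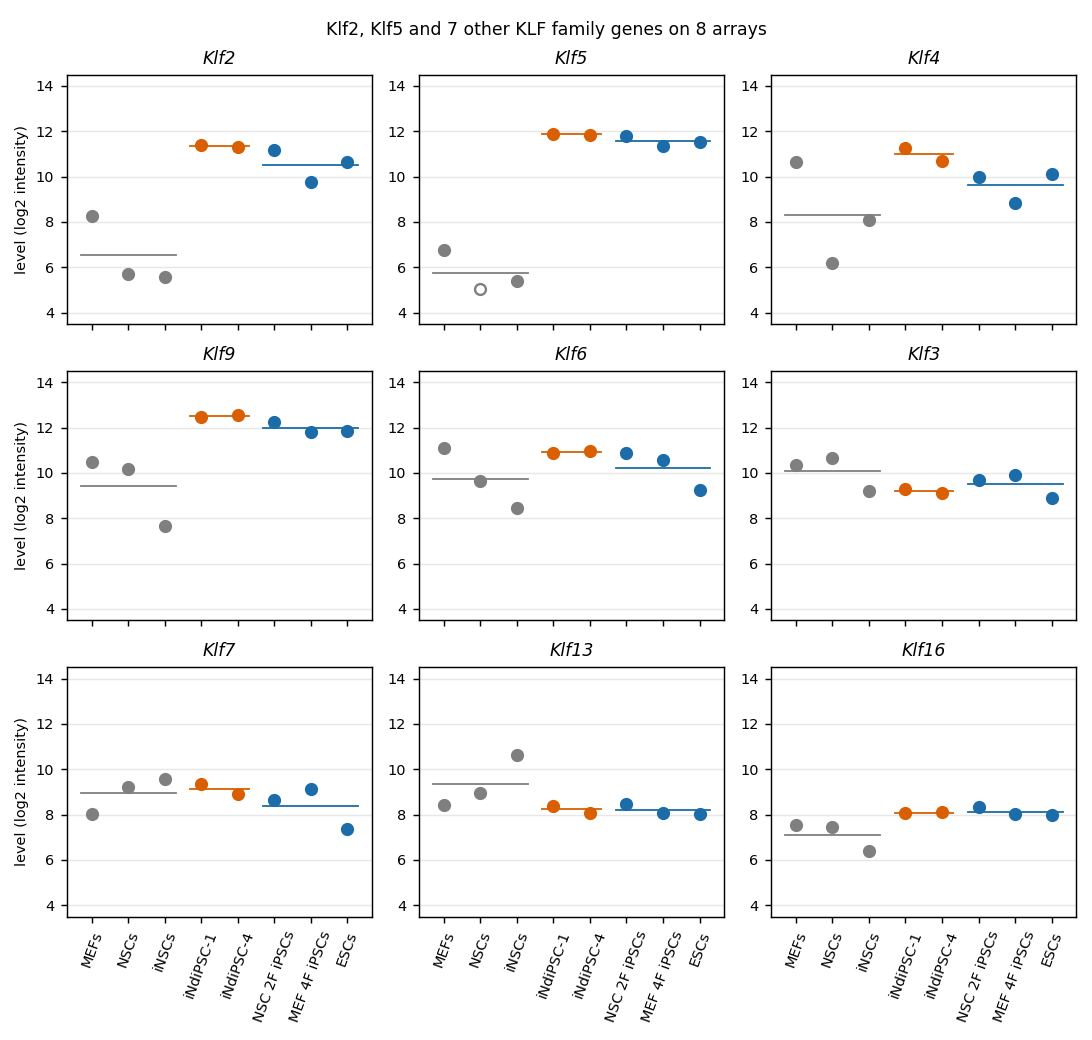
Log2 level of Klf2, Klf5 and 7 other KLF family genes on 8 arrays, with short lines at the group means. Klf2, Klf5, Klf9 and Klf16 separate pluripotent from somatic arrays. Klf3, Klf6, Klf7 and Klf13 overlap between the control lines and the somatic arrays, and Klf4 is at 10.66 in MEFs.

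Other genes of the pluripotency network gave a wider background. Of 24 listed, 21 were tested and 18 were called higher in the control lines than in somatic samples, against 12.9% of all genes. Most of the 18 were detected in no somatic sample, so that they entered the test through the control lines and had to differ. The median log2 difference was 4.76 (3.98 with undetected values set to the detection limit), and 0 were lower. Pou5f1, which encodes Oct4, and Dppa5a, each detected in 1 somatic sample, rose 114-fold and 552-fold against the detection limit. Dppa4 rose at least 158-fold and Rif1 at least 2.70-fold, with no somatic array above the limit. Sox2 (1.16), Klf4 (1.33) and Prdm14 (1.06) did not pass, with Sox2 at 9.84 in NSCs and 9.92 in iNSCs. In the clones over the somatic samples 17 of 20 were called higher, against 11.6% of all genes. Most of the 17 likewise entered only through the clones. Against the control lines limma called 0 of 21, and 7 had an unadjusted p under 0.05. Of the primed epiblast list, which the naive factors are set against, 1 of 8 tested was called in the clones over the control lines, Otx2, with levels of 10.43 and 10.73 against 9.14, 8.26 and 8.46 (adjusted p = 0.0450). Its call held without NSC 2F iPSCs (limma adjusted p = 0.0367) and was lost without any other one of the 5 arrays, at 1.78 to 2.11 log2 (adjusted p = 0.0663 to 0.474). Fgf5, a marker of the primed epiblast, was detected in the clones (5.35 and 5.24) and not in the control lines (4.50 to 4.82). Its difference did not pass (limma adjusted p = 0.170), and its level was 7.38 in MEFs. Of the other tested genes of this list, Zic2, Eomes and Nodal were higher in the clones by 0.54, 0.58 and 0.81 log2. Pou3f1, Dnmt3b and Sall2 had differences of -0.92, -0.51 and -0.38, and none of these genes was called.

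The genes nearest to each member were found by the root mean square difference of log2 profiles over the 8 arrays, each centred on its own mean, among 9285 genes detected on at least 2 arrays. Esrrb, Sall4 and Tfap2c were near neighbours of one another, with distances of 0.30 between Sall4 and Tfap2c, 0.30 between Esrrb and Tfap2c and 0.39 between Esrrb and Sall4. The nearest gene to Sall4 was Wfdc2 (0.21). Nanog was nearest to Fbxo15 (0.26), an ESC gene used in early screens for reprogrammed cells, and to Ooep (0.43). Zfp42 was nearest to Nodal (0.20) and Elf3 (0.22), and Klf5 to Zfp985 (0.37) and Llgl2 (0.43). Klf2 lay nearest to Stxbp2 (0.44) and Tcfl5 (0.48), and Tbx3 to Rbpms (0.59) and Pkp2 (0.61). The median distance of all genes from a member was between 2.15 (Tbx3) and 3.77 (Nanog). These distances describe 8 single arrays, and undetected levels entered as measured. Sall4 and Tfap2c were detected on no somatic array and Esrrb only in NSCs, so their distances rest partly on levels below the limit.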

How the data were processed

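Total RNA of 8 samples was labelled and hybridised to Illumina mouse bead arrays with 25697 probes, 1 array per sample. The authors deposited a scanner table of bead intensity per probe, exported with BeadStudio 3.2 and not yet normalised, together with a detection p-value per probe. The deposited matrix of log2 values, which per the labels was made with RMA and lumi (order and parameters not given in the sources used here), served as an alternative. All columns were matched to a sample (0 unmatched).

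Intensities were corrected against the negative control beads through their detection p-values, quantile normalised and logged with neqc (offset 16) of limma 3.58.1 in R 4.3.3. Quantile normalisation sets all arrays to 1 distribution, and background correction widens differences of dim probes. Platform annotation gave 23978 probes 1 gene symbol and 1719 (6.69%) none. Of several probes of a gene the one with the highest mean was used. Genes detected (p below 0.01) on at least 2 arrays of a comparison were fitted with lmFit and eBayes, with Benjamini-Hochberg adjustment over all of them. A gene was called at an adjusted p under 0.05 and at least 2-fold. The number of arrays limits the precision, and p-values measure only the spread between lines. "At least" folds set undetected values to the dimmest detected probe of the array. The fits were tested on simulated data. Alternatives varied the background correction, scaling, offset, filter, probe choice, trend, fold and the arrays used.

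The members and gene lists were chosen with earlier results of these data known. Genes named are the members, all listed paralogs as a group, examples from the lists and the 2 nearest profiles of each member. The label of the second clone is iNdiPSC-4, where the paper shows clones 1 and 2.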

Additional observations from a re-analysis of the deposited data

Results flagged for a closer look

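Klf4 was the only one of 55 genes (members, their paralogs and other pluripotency genes) to move at least 2-fold in opposite directions from different donor cells, with undetected values set to the detection limit of the array. Its log2 difference was -1.83 in MEF 4F iPSCs over MEFs, 3.80 in NSC 2F iPSCs over NSCs, 3.198 in iNdiPSC-1 over iNSCs and 2.61 in iNdiPSC-4 over iNSCs. Each is a difference between 2 single arrays, and the difference between donor types was not tested. With the mean of all Klf4 probes the fall from MEFs was -0.72.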

How the results depend on the processing

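With all arrays kept, the members called higher in control lines than in somatic samples numbered 7 or 8, and those called in the clones over somatic samples 6 to 8, except that with the clones averaged to 1 sample 3 were called. No member was called higher in the clones over the control lines under any alternative run with limma, and 1, Sall4, was called lower when every probe was fitted by itself. Leaving out 1 array gave 6 to 8 members called in control lines over somatic samples and 0 to 8 in the clones over somatic samples, the 0 without either clone, where a lone clone is assumed to vary like the other arrays and 5 members had an unadjusted p under 0.05. Of the single member differences, 7 calls in control lines over somatic samples and 20 in the clones over somatic samples were lost among 120 and 114 recomputed values. Esrrb, at 0.02 log2 in the clones over the control lines, turned to -0.0157 with 75th percentile scaling and ranged from -0.3111 without MEF 4F iPSCs to 0.2213 without NSC 2F iPSCs. Tfap2c ranged from -0.3876 without MEF 4F iPSCs to 0.0493 without iNdiPSC-4. Sall4 ranged from -0.599 with the mean of its probes to -0.0179 without NSC 2F iPSCs. The cause of these changes was not tested.

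Counts over all genes moved more. Control lines over somatic samples gave 707 higher and 533 lower without background correction and 457 and 398 at 4-fold. Leaving out 1 array gave 441 to 1595 higher and 272 to 1577 lower, the lowest without NSC 2F iPSCs and the highest without MEFs. The clones over the control lines gave 14 higher and 25 lower without background correction, 24 higher with an offset of 50, 29 with detection on 1 array, 28 without a detection filter, and 8 higher and 25 lower at 4-fold. With 1 array left out they gave 0 to 45 higher and 2 to 67 lower, and with the clones averaged 0 and 2, where limma had 379 higher and 264 lower at an unadjusted p under 0.05. The clones over somatic samples gave 653 higher and 382 lower without background correction and 503 and 363 at 4-fold. With 1 array left out they gave 0 to 1750 higher and 0 to 1592 lower, the highest without MEFs, and with the clones averaged 20 and 0, where 981 and 667 had an unadjusted p under 0.05 in limma. Without iNdiPSC-1 the unadjusted counts were 469 and 583. Members near the detection limit in somatic samples have differences bounded by background. The values of Dazl, Asz1, Olig1, Sall2, Otx2 and the second Sall4 probe with 1 array left out were added after the data had been seen.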
